A study of Mus musculus with 3 samples.

Results

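Utf1 peaks were described in 2 clusters of olfactory receptor genes of the mouse, on chromosome 2 at 85150000 to 89700000 (4.55 Mb) and on chromosome 9 at 37500000 to 40100000 (2.6 Mb), in mm9 coordinates counted from 1. A peak was a member where it overlapped either stretch. Of 163114 peaks in both lists, 136 were members: 88 of 152608 biotin peaks and 48 of 10506 endogenous peaks. No member crossed a cluster boundary. No measure of expression or of chromatin state was analysed here, so the label of silent chromatin is background that was not checked in these cells.

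Olfactory receptors are G protein-coupled receptors of the sensory neurons of the nose. Their genes, named Olfr in the mouse, form the largest gene family of the genome and lie in long clusters on many chromosomes, mixed with pseudogenes. Each sensory neuron expresses a single receptor gene, and in other cell types, embryonic stem cells included, the clusters are known as silent chromatin. Utf1 (undifferentiated embryonic cell transcription factor 1) binds the chromatin of pluripotent cells.

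The peaks came from chromatin immunoprecipitation with sequencing in KH2 cells, an established mouse embryonic stem cell line, in 3 groups of 1 library each. The biotin group precipitated biotin-tagged Utf1 and the endogenous group Utf1 without a tag. The third group was a whole-cell extract without antibody, and no values of it were analysed here. All groups were grown with 15% serum on irradiated CF1 mouse embryonic fibroblasts as feeder cells, crosslinked for 5 min in 1% formaldehyde and sheared to 200 to 700 bp. The protocol puts the tagged protein on streptavidin beads, whereas the antibody label of both precipitations is the same Utf1 antibody. The construct and the promoter that drive the tagged protein are not given in the labels. With 1 library per group there was no replicate check and no test. Intervals are exact at 95%, cover counting error only, and are too narrow where neighbouring peaks depend on each other.

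The whole lists differ in kind, which bears on the counts in the clusters. Biotin peaks added up to 212 Mb and had a median of 53 tags, sequenced reads counted inside a peak. Endogenous peaks added up to 7.38 Mb and had a median of 14 tags. No biotin peak had fewer than 22 tags and no endogenous peak fewer than 13. How deeply each library was sequenced is unknown, because tags outside peaks are not in the lists.

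The gene content of the clusters was taken from the RefSeq gene order of GRCm38.p6, another build, and serves for names and neighbours only. A run was a series of Olfr genes with at most 5 other genes between neighbours. On chromosome 2 the longest run of Olfr genes, from Olfr987 to Olfr1274, held 293 of the 377 Olfr genes of the chromosome, 222 of them protein-coding and 71 pseudogenes. Within it lay 39 other genes. The next protein-coding genes were Lrrc55 before the run and Ptprj, a receptor tyrosine phosphatase, after it. On chromosome 9 the longest run, from Olfr160 to Olfr986, held 127 of 179 Olfr genes, 95 protein-coding and 31 pseudogenes, with 17 other genes among them. Panx3, a pannexin channel gene, preceded that run, and Zfp202, a zinc finger gene, followed it. In GRCm38.p6 the runs spanned 5.07 and 2.48 Mb. The chromosome 2 run is thus longer than the stretch of 4.55 Mb described here, and some of its genes may lie in a flank.

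The DNA around the annotated starts of these genes was poor in G, C and CpG. CpG is a dinucleotide that is dense at the starts of many housekeeping and developmental genes. RefSeq start-site windows, 250 bases before to 50 after each start in GRCm38.p6, were at hand for 186 of 222 protein-coding genes of the chromosome 2 run (83.8%) and for 79 of 95 of the chromosome 9 run (83.2%). The 5 windows below set in each run the window nearest to the median composition beside those at hand of the coding genes next to the run, Lrrc55 before and Ptprj after it on chromosome 2 and Zfp202 after it on chromosome 9. Ptprj has 2 windows in the table and 1 is shown. Capitals mark CpG. Olfr1096 is at chr2:86874753-86875052, minus strand, Lrrc55 at chr2:85198701-85199000, minus strand, Ptprj at chr2:90580546-90580845, minus strand, Olfr912 at chr9:38579994-38580293, plus strand, and Zfp202 at chr9:40192066-40192365, plus strand. These GRCm38.p6 positions cannot be set against the mm9 positions of the peaks.
Olfr1096: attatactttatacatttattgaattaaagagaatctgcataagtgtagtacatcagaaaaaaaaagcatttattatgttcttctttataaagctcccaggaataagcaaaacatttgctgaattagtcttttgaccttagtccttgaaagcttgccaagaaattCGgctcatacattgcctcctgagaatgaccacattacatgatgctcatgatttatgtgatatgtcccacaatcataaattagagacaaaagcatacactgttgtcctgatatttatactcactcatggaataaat
Lrrc55: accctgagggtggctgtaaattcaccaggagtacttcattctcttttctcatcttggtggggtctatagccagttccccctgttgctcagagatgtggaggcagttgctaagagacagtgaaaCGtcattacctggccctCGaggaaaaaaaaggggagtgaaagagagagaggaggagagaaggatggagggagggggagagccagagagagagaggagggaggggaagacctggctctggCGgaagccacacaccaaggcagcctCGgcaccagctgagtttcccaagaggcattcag
Ptprj: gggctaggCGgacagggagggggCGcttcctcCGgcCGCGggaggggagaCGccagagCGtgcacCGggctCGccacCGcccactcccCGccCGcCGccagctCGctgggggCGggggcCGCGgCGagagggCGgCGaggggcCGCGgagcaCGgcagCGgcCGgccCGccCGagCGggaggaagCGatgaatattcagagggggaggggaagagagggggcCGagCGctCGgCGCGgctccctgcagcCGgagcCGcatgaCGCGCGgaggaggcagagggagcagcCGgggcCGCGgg
Olfr912: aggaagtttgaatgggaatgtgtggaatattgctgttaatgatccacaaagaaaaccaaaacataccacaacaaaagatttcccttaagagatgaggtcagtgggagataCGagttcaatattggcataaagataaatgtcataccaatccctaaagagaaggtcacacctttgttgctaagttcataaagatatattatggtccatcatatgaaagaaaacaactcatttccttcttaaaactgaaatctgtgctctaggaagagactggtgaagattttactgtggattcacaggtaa
Zfp202: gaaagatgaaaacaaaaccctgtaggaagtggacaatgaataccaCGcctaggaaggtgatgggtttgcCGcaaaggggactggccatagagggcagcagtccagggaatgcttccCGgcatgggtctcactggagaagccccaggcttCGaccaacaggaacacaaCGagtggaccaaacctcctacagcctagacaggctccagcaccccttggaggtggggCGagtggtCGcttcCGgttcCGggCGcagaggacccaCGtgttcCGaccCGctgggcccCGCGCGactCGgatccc

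Olfr1096 had 1 CpG in 300 bases and a GC content of 32.0%, and Olfr912 1 CpG and 35.7%. Ptprj had 42 CpG and 79.3%, and Zfp202 17 CpG and 60.7%. Lrrc55 had 4 CpG and 54.7%, fewer CpG than the median of the other windows of the genome. Over the runs the median GC content was 32.0% in 187 windows on chromosome 2 (quartiles 29.3 and 34.5%) and 35.5% in 80 windows on chromosome 9 (32.7 and 38.0%). In the 32584 other windows of the genome the median was 53.0% (46.0 and 61.7%). The median number of CpG was 1 in both runs and 7 in the other windows. No window of the runs had 10 or more CpG, against 43.8% of the others, and 34.1% of the run windows had none, against 5.19%. In 68.2% of the run windows the annotated start was the ATG itself, against 5.32% of the others, so many of these windows lie before the coding start and not at a mapped promoter.

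**Figure D1:**
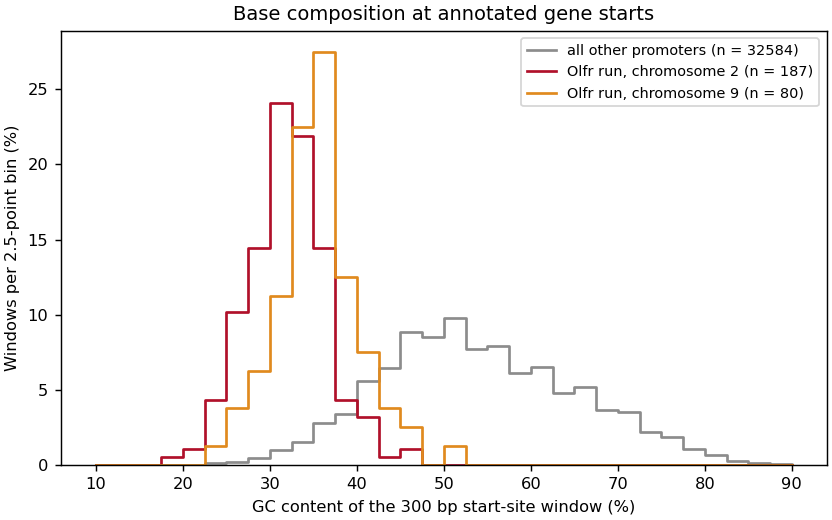
GC content of the RefSeq start-site windows, 250 bases before to 50 after the annotated start (x axis, percent), as the percentage of windows in each bin of 2.5 points (y axis). The Olfr runs on chromosome 2 (red, 187 windows) and chromosome 9 (orange, 80 windows) centre at 32.0 and 35.5%, and the 32584 other windows (grey) at 53.0%.

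TAATTA, the core bound by homeodomain proteins, was found in 60 of 267 run windows (22.5%) and in 5.29% of all 32851 windows, both strands read as 1 because the word is its own reverse complement. The core of the Olf1/EBF site known from olfactory neuron genes, TCCC and GGGA with 2 bases between them and again its own reverse complement, was in 0 run windows and in 0.904% of all. The run windows had a median GC content of 33.0%, against 52.7% for all windows. The counts were not matched for base composition, and neither share was set against one expected from it. No enrichment or lack of either word can therefore be read from them. A match is a description of letters and not a site. An identical stretch of 36 bases was shared with the window of another gene of the runs by 41 of 187 windows on chromosome 2 (21.9%) and 15 of 80 on chromosome 9 (18.8%). The other windows of the genome were not searched for shared stretches, so whether these shares are unusual is unknown. The treatment of reads that map to several places was not given in the sources used here, so peaks on such copies are uncertain.

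In the biotin list both clusters held few peaks, fewer than the flanks on either side. Flanks are the stretches of the same length directly before and after a cluster. The chromosome 2 cluster had 42 biotin peaks, 9.23 per Mb (95% interval 6.65 to 12.5), against 160 in the left flank (35.2 per Mb, 29.9 to 41.1) and 590 in the right flank (129.7 per Mb, 119.4 to 140.6). The ratio to both flanks was 0.112 (0.0800 to 0.153), that is 8.93 times fewer. The chromosome 9 cluster had 46, 17.7 per Mb (12.95 to 23.6), against 151 (58.1 per Mb, 49.2 to 68.1) and 254 (97.7 per Mb, 86.0 to 110.5). Its ratio was 0.227 (0.164 to 0.309), 4.40 times fewer. The interval of neither cluster reached that of either of its flanks, and over all autosomes the density was 61.9 per Mb.

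In the endogenous list the clusters were not sparse. The chromosome 2 cluster had 28 endogenous peaks, 6.15 per Mb (4.09 to 8.89), between the left flank with 37 (8.13 per Mb, 5.73 to 11.2) and the right flank with 15 (3.30 per Mb, 1.85 to 5.44). The ratio to both flanks was 1.08 (0.655 to 1.74). The chromosome 9 cluster had 20, 7.69 per Mb (4.70 to 11.9), again between the left flank with 26 (10 per Mb, 6.53 to 14.7) and the right flank with 5 (1.92 per Mb, 0.624 to 4.49). Its ratio was 1.29 (0.697 to 2.34). Neither ratio was distinguishable from 1 by counting error. The ratio fell below 1 against either left flank alone, to 0.757 (0.446 to 1.27) and 0.769 (0.407 to 1.43). Against the right flanks it rose to 1.87 (0.964 to 3.76) and 4.00 (1.46 to 13.6). Of these 4 intervals, only that of chromosome 9 against its right flank excluded 1. The ratio to both flanks lay below 1 for the stronger 50% of the endogenous list, at 0.933 (0.457 to 1.82) and 0.700 (0.250 to 1.72). Over all autosomes the density was 3.98 per Mb.

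Biotin peaks outnumbered endogenous peaks less in the clusters than outside. For each endogenous peak there were 1.50 biotin peaks in the chromosome 2 cluster and 2.30 in the chromosome 9 cluster. The left flanks had 4.32 and 5.81, the right flanks 39.3 and 50.8, and all autosomes 15.6. Because the lists have different lower limits, the value describes the lists and not how much tagged or endogenous protein was bound.

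Biotin counts dropped sharply at the start of both clusters and rose less abruptly at their ends. The last 500 kb before the chromosome 2 cluster held 49 biotin peaks and the first 500 kb inside it 5. Its last 500 kb held 3, the next 500 kb outside 15 and the 500 kb after that 39. Some genes of the chromosome 2 run may lie in a flank, and whether this bears on the rise was not tested. At the start of the chromosome 9 cluster the count went from 45 before the boundary to 7 after it. At its far end the count went from 19 in the last 500 kb to 49 outside and 45 in the 500 kb after that. Endogenous peaks at the same boundaries went from 1 to 1 and from 6 to 5 on chromosome 2, and from 3 to 3 and from 5 to 2 on chromosome 9. The low biotin density was not limited to the clusters: 9 of 18 bins of 253 kb in the left flank of chromosome 2 held no more than 5 biotin peaks, the most in any bin of the cluster. In the left flank of chromosome 9, 5 of 10 bins of 260 kb stayed at or under the cluster's highest bin of 12.

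**Figure D2:**
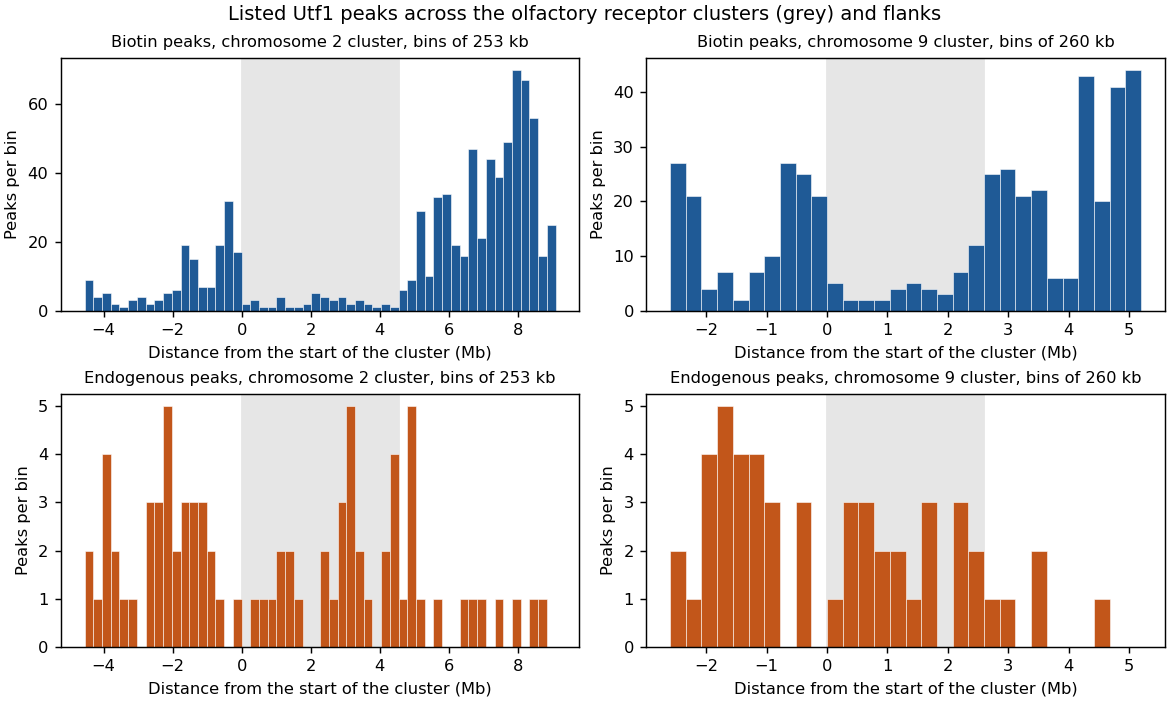
Number of peaks by summit (y axis) in bins along each cluster (grey band) and its flanks, by distance from the start of the cluster (x axis, Mb), in bins of 253 kb for chromosome 2 and 260 kb for chromosome 9. Upper panels show biotin peaks and lower panels endogenous peaks. Biotin bins range from 1 to 5 inside the chromosome 2 cluster and from 6 to 70 in its right flank, while endogenous bins range from 0 to 5 in the cluster and also over its flanks.

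Inside the clusters the counts varied from part to part. Cut into 4 equal parts of 1.14 Mb, the chromosome 2 cluster held 10, 10, 16 and 6 biotin peaks and 5, 3, 13 and 7 endogenous peaks from start to end. The third part, 87425000 to 88562499, was the richest in both lists. The chromosome 9 cluster, cut into parts of 0.65 Mb, held 8, 7, 12 and 19 biotin peaks, most of them toward its far end, and 6, 5, 4 and 5 endogenous peaks. The exact Poisson intervals of the 4 counts overlapped in each list and cluster, and whether the spread departs from an even one was not tested.

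Long stretches held no peak at all. The longest without a biotin peak was 322.8 kb on chromosome 2, from 86684017 to 87006778, and 286.9 kb on chromosome 9, from 38359947 to 38646829. The longest without an endogenous peak was 872.7 kb, from 86687143 to 87559865, and 407.5 kb, from 38846741 to 39254253. On chromosome 2 the stretch from 86687143 to 87006778, 319.6 kb, was without a peak of either list. Stretches of over 100 kb without a biotin peak made up 73.0% of the chromosome 2 cluster and 47.2% of the chromosome 9 cluster. Those without an endogenous peak made up 85.0% and 86.2%. Such stretches were not measured in the flanks or in other windows, so whether they are long for either list is unknown.

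Against other autosomal windows of the same length, the chromosome 2 cluster was near the lower end of the biotin list and both clusters were in the upper part of the endogenous list. Windows were tiled from the first listed peak of each autosome, and a percentile is the share of windows with fewer peaks plus 0.5 times the share with as many. Only 9 of 516 windows of 4.55 Mb had fewer biotin peaks than the 42 of the chromosome 2 cluster, a percentile of 1.74. The median window had 207.5. For endogenous peaks its 28 stood at percentile 87.9, with a median window of 16. Of 913 windows of 2.6 Mb, 190 had fewer biotin peaks than the 46 of the chromosome 9 cluster, a percentile of 21.2 against a median of 111. Its 20 endogenous peaks stood at percentile 93.3, with a median of 9. The low biotin count was therefore less extreme on chromosome 9 than on chromosome 2 against the genome, as it was against the flanks. These 2 percentiles come from windows of unlike length. With windows of 1 Mb for both, and the counts scaled to that length, they were 27.9 on chromosome 9 and 9.18 on chromosome 2.

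Most windows poor in biotin peaks had fewer endogenous peaks than the clusters. In the lowest 20% of windows by biotin peaks, the median number of endogenous peaks was 22 in 103 windows of 4.55 Mb (quartiles 17 and 26) and 12 in 183 windows of 2.6 Mb (8 and 16). The clusters, with 28 and 20, stood at percentiles 80.1 and 93.4 of these. The lowest 20% of the 4.55 Mb windows reached well above the 42 biotin peaks of the cluster, with a median of 72 biotin peaks and up to 94. The 9 windows with fewer biotin peaks than the chromosome 2 cluster had 0 to 24 endogenous peaks, with a median of 15, and thus fewer than the cluster. Of 198 windows with no more biotin peaks than the chromosome 9 cluster, 178 had fewer endogenous peaks, and the highest had 33. The percentiles are descriptions of 1 library each.

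**Figure D3:**
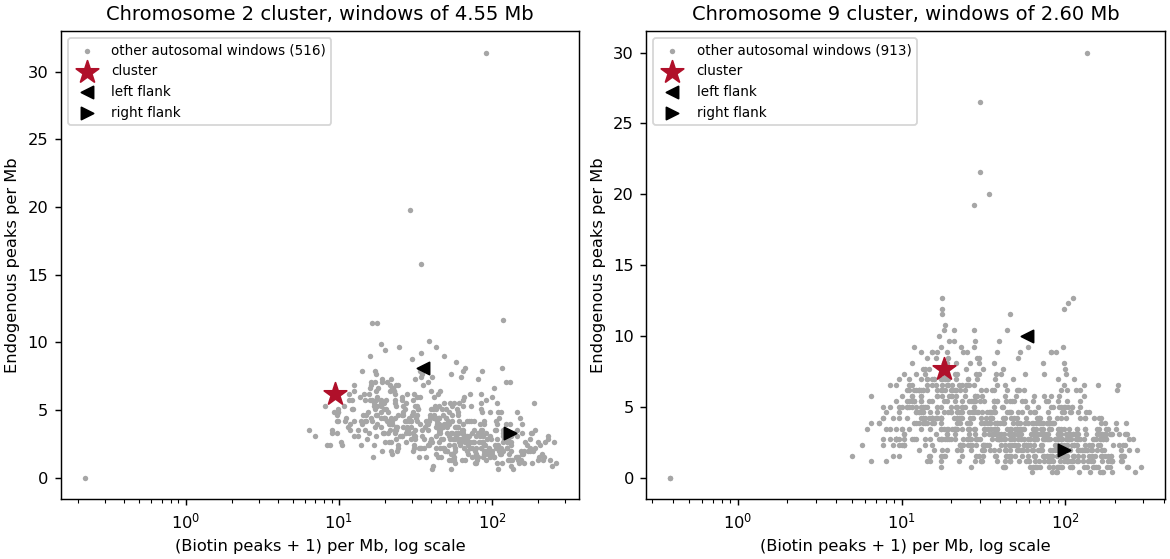
Endogenous peaks per Mb (y axis) against biotin peaks, plus 1, per Mb (x axis, log scale) in autosomal windows as long as each cluster (grey points, 516 windows of 4.55 Mb and 913 of 2.6 Mb), with the cluster (star) and its flanks (triangles). The clusters, with 42 and 46 biotin peaks, lie left of their flanks, and at 6.15 and 7.69 endogenous peaks per Mb they lie between them in height.

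Coverage went in the same direction as the counts. Biotin peaks covered 42.4 kb of the chromosome 2 cluster, 0.932%, against 4.46% of the left and 18.1% of the right flank. On chromosome 9 they covered 51.5 kb, 1.98%, against 7.69 and 11.8%. Endogenous peaks covered 0.393% of the chromosome 2 cluster, against 0.495 and 0.230% of its flanks, and 0.450% of the chromosome 9 cluster, against 0.679 and 0.115%. All autosomes were covered to 8.62% by biotin and to 0.270% by endogenous peaks.

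Against both flanks, biotin tags per Mb were 13.3 times lower on chromosome 2, where peaks were 8.93 times fewer. On chromosome 9 the values were 4.45 and 4.40. Counted per covered kb, tags were nearer to the flanks. The biotin peaks of the chromosome 2 cluster held 2595 tags, 570.3 per Mb, against 3322 and 11829 per Mb in its flanks. Per covered kb the cluster had 61.2 tags and the flanks 74.5 and 65.4. On chromosome 9 the cluster held 3709 biotin tags, 1427 per Mb, against 5510 and 7182 per Mb. Per covered kb it had 72.1 tags and the flanks 71.6 and 61.1. Over all autosomes the value was 66.6 tags per covered kb.

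Endogenous tags were 91.4 per Mb in the chromosome 2 cluster, against 116.7 and 87.0 in its flanks, and 106.2 per Mb in the chromosome 9 cluster, against 426.2 and 27.3. A single peak set the value of the left flank of chromosome 9. It lay at 35112260 to 35113693 with 719 tags and a fold enrichment of 2.71, and without it that flank had 149.6 tags per Mb. In the right flank of chromosome 2, a peak at 91933250 to 91934362 had 118 tags, and without it that flank had 61.1 per Mb. Neither cluster held an endogenous peak of over 100 tags, and each of these flanks held only 1. The upper quartile of the whole list was 16 tags, and its share of peaks over 100 tags was not counted. No lack in the clusters can be read from this.

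Biotin peaks in the clusters were few, but most of their listed values were like those elsewhere. Fold enrichment is the authors' own ratio for a peak over a background, which the sources used here do not give. The median of this ratio was 4.03 in the chromosome 2 cluster (quartiles 3.49 and 5.86) and 4.61 in the chromosome 9 cluster (3.49 and 7.07), against 4.14 in the whole list and 4.19 in the 4 flanks. A fold at or above the upper quartile of the list, 6.03, was listed for 28 of 88 cluster peaks, 31.8% (22.3 to 42.6), and for 25.6% of all biotin peaks. Over 100 tags were listed for 6 of 42 peaks on chromosome 2, 14.3% (5.43 to 28.5), and for 15 of 46 on chromosome 9, 32.6% (19.5 to 48.0), where the whole list had 27.0%. On chromosome 2 the peaks were narrower, with a median of 893 bp against 1088 bp in its flanks. There 28 of 42 peaks were up to 1000 bp wide, 66.7% (50.5 to 80.4), against 41.8% of the whole list and 41.5% (37.9 to 45.1) of the flank peaks. The median widths on chromosome 9 were 1052 and 1056 bp.

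In the chromosome 2 cluster, 88081028 to 88082369 was the biotin peak of largest fold, 11.2, and held 155 tags (131.6 to 181.4). Folds of 9.30 and 8.81 followed at 87365919 to 87366627 (81 tags) and 88509995 to 88511073 (145 tags). The fourth and the fifth were 8.18 at 88550701 to 88552155 (162 tags) and 7.24 at 87962746 to 87963794 (82 tags). Of these 5, 3 lay in the stretch from 88081028 to 88552155. The peak with the most tags, 167 (142.6 to 194.3), was also the widest, 2448 bp at 85858903 to 85861350, with a fold of 5.07. The strongest fold here ranked 3474 in the whole biotin list, at percentile 97.7.

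In the chromosome 9 cluster the largest biotin fold, 11.38, was at 37590040 to 37591272, which held 104 tags (85.0 to 126.0). A fold of 10.51 was listed at both 38048126 to 38049679 (227 tags) and 40061442 to 40062616 (135 tags). The fourth and the fifth were 9.83 at 39409764 to 39411704 (126 tags) and 9.36 at 38771648 to 38773362 (188 tags). The most tags, 249 (219.0 to 281.9), were at 38646830 to 38648648, with a fold of 7.07. The widest peak, 2133 bp, was at 40047690 to 40049822. The first of these ranked 3136 in the whole list. Neither cluster reached the largest fold of its own flanks, 15.0 on chromosome 2 and 13.4 on chromosome 9. Those flanks held 750 and 405 biotin peaks against 42 and 46 in the clusters, and a larger set tends to have a larger maximum.

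Endogenous peaks in the clusters were weak, as in most of their list. Exactly 13 tags, the fewest listed, were found in 14 of 28 peaks on chromosome 2 and in 9 of 20 on chromosome 9, together 47.9% (33.3 to 62.8) against 40.4% of the whole list. Over 15 tags were listed for 11 of 28 on chromosome 2, 39.3% (21.5 to 59.4), but for 1 of 20 on chromosome 9, 5.00% (0.127 to 24.9), against 29.9% of the whole list. The median fold was 1.57 and 1.53, with 1.57 in the whole list. A fold at or above the upper quartile of the list, 1.76, was listed for 10 of 28 peaks on chromosome 2 and 4 of 20 on chromosome 9, together 29.2% (17.0 to 44.1) against 34.0% of the whole list. The listed false discovery rate ran from 1.24 to 5.25% over the 48 peaks, so none was at or under the 0.5% at which the biotin list ended.

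Of the endogenous peaks on chromosome 2, 88220075 to 88220991 had the largest fold, 2.35, the most tags, 22 (13.8 to 33.3), and the greatest width, 917 bp. The fold was 2.15 at both 88346956 to 88347632, which held 16 tags, and 88508141 to 88508838, which held 17. Folds of 1.96 were listed at 85776391 to 85776925 and at 88907603 to 88908114. The first was 11.5 kb from the nearest biotin peak, and the third was 1157 bp from the biotin peak that began at 88509995.

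Of those on chromosome 9, 38012512 to 38013091 had the largest fold, 2.04, and 14 tags (7.65 to 23.5), and lay 33.2 kb from the nearest biotin peak. Folds of 1.76 were listed at 38050932 to 38051513, at 39254254 to 39254836 and at 39912528 to 39913110, with 13, 13 and 14 tags. A fold of 1.57, the list's median, was listed for 4 peaks that tie for the fifth place. Of these, 37690805 to 37691491 had the most tags, 15, and was the widest endogenous peak of the cluster at 687 bp. The most tags were 17 (9.90 to 27.2) at 38846125 to 38846740. A fold under 1 was listed for 1 peak of the clusters, 0.95 at 39305929 to 39306496, and for 3.29% of the whole list.

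**Figure D4:**
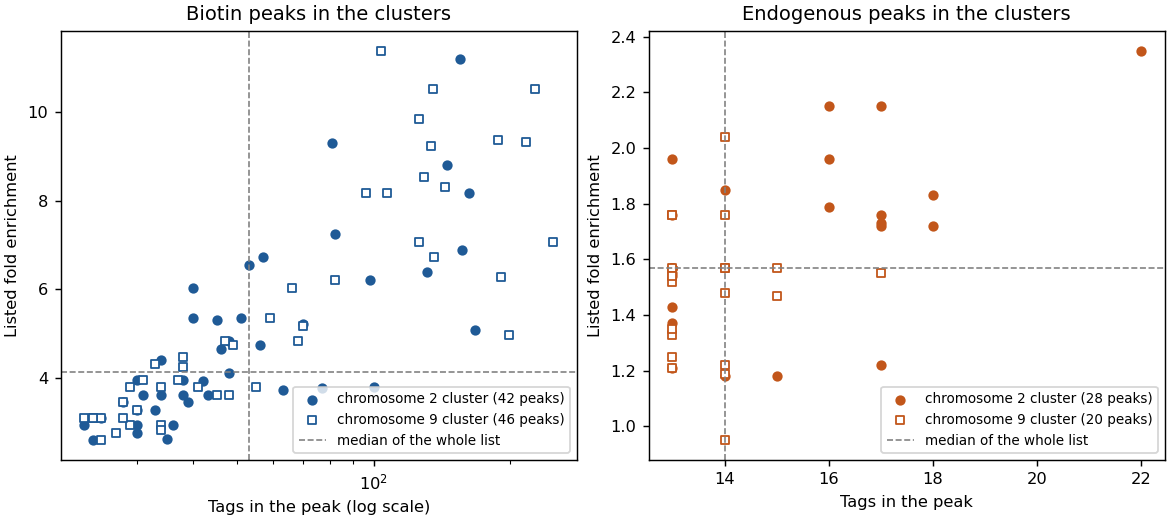
Listed fold enrichment (y axis) against the number of tags (x axis, log scale for biotin) of each biotin peak (left) and endogenous peak (right) in the chromosome 2 cluster (filled circles) and the chromosome 9 cluster (open squares), with the medians of the whole list as dashed lines. The biotin peaks scatter on both sides of the medians of 53 tags and a fold of 4.14, up to 249 tags, while the endogenous peaks lie between 13 and 22 tags.

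Few peaks were shared between the lists, in the clusters as over the whole lists. Peaks counted as overlapping shared at least 1 bp. Of the endogenous peaks, 3 of 28 on chromosome 2 and 3 of 20 on chromosome 9 overlapped a biotin peak, together 6 of 48 or 12.5% (4.73 to 25.2). The share was 18.8% in the whole endogenous list and 20 of 83, 24.1% (15.4 to 34.7), in the 4 flanks. A difference from either was not detectable with 48 peaks. From the other side, 6 of 88 biotin peaks overlapped an endogenous peak, 6.82% (2.54 to 14.3), against 1.28% of the whole list and 1.73% (1.06 to 2.66) in the flanks. The denominators differ, with 1.83 biotin peaks per endogenous peak in the clusters and 13.9 in the flanks. Biotin peaks covered 1.31% of the bases of the clusters, 10.7% of the flanks and 8.62% of the autosomes. A share of peaks and a share of bases are not on the same scale, since peaks have a width.

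All 6 overlapping pairs had their summits, the highest points of the peaks, 398 to 1079 bp apart. On chromosome 2 the endogenous peak at 87610917 to 87611501 (13 tags, fold 1.54) overlapped the end of the biotin peak at 87610245 to 87611107 (38 tags, fold 3.62) by 191 bp, with summits 626 bp apart. The one at 88550437 to 88551213 (18 tags, 1.72) overlapped the biotin peak at 88550701 to 88552155 (162 tags, 8.18) by 513 bp, with summits 467 bp apart. The one at 89315139 to 89315875 (17 tags, 1.76) overlapped 89315574 to 89316251 (38 tags, 3.96) by 302 bp, with summits 398 bp apart.

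On chromosome 9 the endogenous peak at 38358517 to 38359105 (13 tags, 1.33) overlapped 38358643 to 38359946 (144 tags, 8.30) by 463 bp, with summits 556 bp apart. The one at 39692751 to 39693326 (13 tags, 1.52) overlapped 39693252 to 39694470 (68 tags, 4.83) by only 75 bp, with summits 1079 bp apart. The one at 39700763 to 39701312 (13 tags, 1.25) overlapped 39701082 to 39701781 (25 tags, 3.10) by 231 bp, with summits 522 bp apart. In 5 of the 6 pairs the endogenous summit was at the lower coordinate. The side was not counted for pairs elsewhere, so no preferred side can be read from 6 pairs. Summits within 250 bp of each other were found for 0 of 48 endogenous peaks, against 4.71% of the whole list. The exact interval allows a share of up to 7.40%. Over the whole list 1971 endogenous peaks overlapped a biotin peak and 495 had a summit that near. Most overlapping peaks there were thus also without one.

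Several more endogenous peaks lay beside a biotin peak without touching it. On chromosome 2 there were 3 such peaks within 1 kb, 8 bp away, from 85950157 to 85950745, 105 bp away, from 88206952 to 88207543, and 349 bp away, from 85534563 to 85535225. The 2 on chromosome 9, at 38770786 to 38771353 and 38050331 to 38050928, were 295 and 652 bp away. Within 1 kb, overlaps included, lay 11 of 48, 22.9% (12.0 to 37.3), against 30.3% of the whole list. Bases within 1 kb of a biotin peak made up 3.70% of the clusters and 18.1% of the autosomes. Within 5 kb lay 10 of 28 on chromosome 2, 35.7% (18.6 to 55.9), and 13 of 20 on chromosome 9, 65.0% (40.8 to 84.6), against 54.7% of the whole list. The median distance was 24.2 kb on chromosome 2 and 3.35 kb on chromosome 9, against 2.55 kb in the flanks and 3.62 kb over all autosomes.

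**Figure D5:**
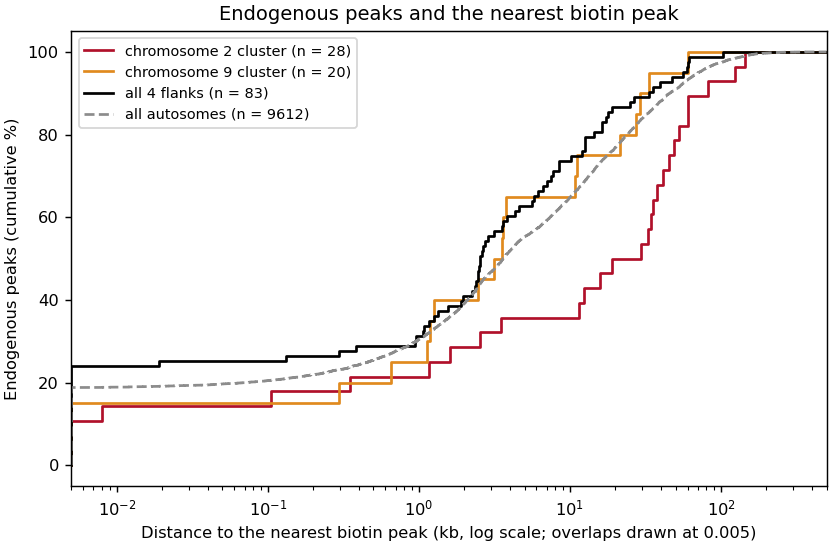
Cumulative percentage of endogenous peaks (y axis) by distance to the nearest biotin peak (x axis, kb, log scale, overlaps drawn at 0.005 kb) in the chromosome 2 cluster (red), the chromosome 9 cluster (orange), the 4 flanks (black) and all autosomes (grey, dashed). The chromosome 2 curve lies to the right, with a median of 24.2 kb, and the chromosome 9 curve, with 3.35 kb, runs near the flanks and the autosomes.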

How the data were processed

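The 2 peak lists of Utf1 precipitations were analysed. Tags were deposited as whole-number counts in each peak, with no scaling to depth. Fold enrichment was deposited as a ratio on a linear scale. The false discovery rate is a percent, and the strength is a score of −10 times log10 of a p-value, both per the file headers. The submitters' processing notes list mm9 as the build, and R 2.15.2 and BWA 0.5.7 as tools with no role. For the peak caller, its settings and its control, the sources used here say nothing. Peaks were listed per library, not on pooled samples.

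Peaks overlapping a cluster or flank by at least 1 bp were counted, with exact Poisson and Clopper-Pearson 95% intervals and conditional intervals for ratios. Autosomal windows of the same length were tiled. Counting was tested on simulated lists. Named peaks were the 5 with the largest fold, the one with most tags and the widest per list and cluster, and all overlapping pairs. The clusters and lists were chosen with earlier results of these data known. Alternatives are in the closing section. Sequences came from RefSeq tables (GRCm38.p6). No mm9 genome was used here, so peaks were not placed on genes. Protein sequences were not used here. Scripts ran in Python 3.11.15 with scipy 1.17.1, pandas 2.3.3 and numpy 2.4.6, and plots were drawn with matplotlib 3.10.9.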

Additional observations from a re-analysis of the deposited data

Results flagged for a closer look

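Against both flanks jointly, the biotin density ratio lay below 1 and the endogenous ratio above 1 in both clusters. On chromosome 2 the peak density over that of the flanks was 0.112 for biotin and 1.08 for endogenous peaks. The values for chromosome 9 were 0.227 and 1.29. These were singled out because the lists, with 1 library each, lay on different sides of 1. The endogenous density itself lay between that of the left and right flank in both clusters. Its ratio was 0.757 and 0.769 against the left flanks alone, and 0.933 and 0.700 for the stronger 50% of the list. The difference between the lists was not tested, since each has 1 library, and the endogenous ratios have intervals that include 1 (0.655 to 1.74 and 0.697 to 2.34). On chromosome 9 the endogenous ratio was 0.222 without peaks of up to 15 tags, where 1 cluster peak remained against 9 in the flanks.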

How the results depend on the processing

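Of 92 alternative values for 15 results, 71 stayed within the interval set around the value reported and 21 moved. That interval was the counting interval for density ratios and overlapping shares. For covered ratios it was the interval of the density ratio, scaled to the covered ratio. For percentiles it was the exact interval of a share of windows, with the count of the cluster held fixed. None of the called ratios reversed, and all 28 alternative biotin ratios stayed below 1, whereas 9 of 30 endogenous ratios were below 1. For the biotin list on chromosome 2, the density ratio of 0.112 became 0.263 against the left flank, 0.0712 against the right flank and 0.155 with peaks merged within 1 kb. The covered ratio of 0.0827 became 0.209, 0.0515 and, without peaks of over 100 tags, 0.124. Endogenous density became 1.87 on chromosome 2 and 4.00 on chromosome 9 against the right flank, where the covered ratio of 1.13 became 3.90. Without peaks of up to 15 tags the chromosome 9 density ratio became 0.222. With windows of 1 Mb the percentiles became 9.18 (biotin) and 83.6 (endogenous) on chromosome 2 and 27.9 and 89.0 on chromosome 9. For the stronger 50% by fold, the endogenous percentile on chromosome 9 became 74.5. The overlapping share became 0% with summits within 250 bp in each cluster and in both together, 4.17% in both with 50% of the shorter peak, and 0% on chromosome 9 for the stronger 50% and without peaks of up to 15 tags. Why these values moved was not tested. Leaving out windows without a peak, and the covered ratio without peaks of over 100 tags, were chosen after seeing the data. No paired analysis was possible because each group has 1 library, and none could be left out. Unknown library depth limits every statement on peak numbers.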
